A study of Mus musculus with 20 samples.

Results

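AMP-activated protein kinase, AMPK, is a complex of a catalytic alpha, a scaffolding beta and a nucleotide-sensing gamma subunit, encoded in the mouse by 7 genes: Prkaa1, Prkaa2, Prkab1, Prkab2, Prkag1, Prkag2 and Prkag3. These 7 were followed, by their symbols, among the 19938 genes measured on Affymetrix mouse gene arrays of gastrocnemius, a mixed but mostly fast calf muscle. Each of the 7 had 1 probe set, so every value below is that of a single probe set per gene, and transcript variants of a gene were not told apart. All 20 arrays came from adult male C57BL/6 mice, 5 in each of 4 groups. The NCoR1-MKO mice lacked the corepressor NCoR1 in muscle, and CON were their controls, of unstated genotype. The PGC-1alpha-mTg mice carried a muscle transgene for the coactivator PGC-1alpha, and WT were wild type mice. The exact age, the Cre driver and the promoter of the transgene are not given in the labels.

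AMPK is switched on when the ratio of AMP and ADP to ATP rises, through nucleotide binding to the gamma subunit and phosphorylation of the alpha subunit by the LKB1 kinase, and it then favours fuel uptake and oxidation over synthesis. Skeletal muscle is known for complexes with alpha2 and beta2, and for gamma3, a subunit that is largely restricted to skeletal muscle and most abundant in fast glycolytic fibres, while gamma1 is present in most tissues. PGC-1alpha is both a target of AMPK and a coactivator of oxidative metabolism, and NCoR1 represses many of the transcription factors that PGC-1alpha activates.

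Values are RMA expression on the log2 scale. Array medians ran from 6.03 to 6.08 over the CON and knockout arrays and from 5.84 to 5.91 over the WT and transgenic arrays, and the value distributions differed more between these pairs of groups than within them. The pairs therefore appear to have been normalized separately, and levels are compared only within a pair. Skeletal muscle markers averaged from 12.83 to 13.43 on every array, where the highest single value was 14.47. Changes are log2 changes ± SE from limma, against a model's own controls, with n = 5 per group and p-values adjusted over all 19938 genes by the Benjamini-Hochberg method. A gene is said to have risen or fallen where its adjusted p was under 0.05. The number of arrays limits the precision, and nothing states that each array was a separate mouse, so p-values measure the spread between these samples, which may be technical. In whole muscle, fewer cells of a type and less RNA per cell cannot be told apart.

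The RefSeq table of assembly GRCm38.p6 held 9 start sites for the 7 genes, 3 of them for Prkag2. The stretches of 250 bases before the start of the gamma genes are shown because all 3 genes were called in PGC-1alpha-mTg, in both directions. Letters in capitals mark matches, on either strand, to the E-box CANNTG, bound by myogenic factors, and to the hexamer AGGTCA, recognised by nuclear receptors such as the estrogen-related receptors that PGC-1alpha coactivates. For Prkag2 the stretch with the AGGTCA match is shown. The sequences lie at chr1:74748956-74749205 (Prkag3, minus strand), chr5:24995754-24996003 (Prkag2, minus strand) and chr15:98831509-98831758 (Prkag1, minus strand).
Prkag3: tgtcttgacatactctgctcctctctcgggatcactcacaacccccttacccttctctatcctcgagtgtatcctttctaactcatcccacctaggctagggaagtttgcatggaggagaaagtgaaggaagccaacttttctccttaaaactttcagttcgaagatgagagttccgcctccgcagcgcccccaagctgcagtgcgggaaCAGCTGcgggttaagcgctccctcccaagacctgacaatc
Prkag2: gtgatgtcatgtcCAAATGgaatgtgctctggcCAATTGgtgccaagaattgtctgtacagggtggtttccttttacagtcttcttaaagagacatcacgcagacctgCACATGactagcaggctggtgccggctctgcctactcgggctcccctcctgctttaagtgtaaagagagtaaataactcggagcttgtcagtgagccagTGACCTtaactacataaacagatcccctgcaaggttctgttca
Prkag1: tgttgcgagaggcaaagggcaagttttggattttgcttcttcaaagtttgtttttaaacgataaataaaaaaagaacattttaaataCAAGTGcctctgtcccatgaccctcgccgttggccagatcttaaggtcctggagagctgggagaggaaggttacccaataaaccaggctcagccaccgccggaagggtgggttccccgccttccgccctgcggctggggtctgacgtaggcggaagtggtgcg

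The Prkag3 stretch had 1 E-box, at bases -40 to -35, and no AGGTCA. The Prkag2 stretch shown had 3 E-boxes and an AGGTCA match, read as TGACCT on the printed strand, at -43 to -38. Prkag1 had 1 E-box, at -163 to -158. All 5 stretches of the gamma genes held an E-box and none of the 4 of the alpha and beta genes did, while 66.2% of 32851 such stretches in the table held CANNTG and 14% held AGGTCA. The MEF2 consensus, found in 2.92% of stretches, matched none of the 9. Base composition differed as well, with 52.4% G and C before Prkag3 and 51.6% before Prkag1, near the median of 52.4% over the table, against 65.6% to 85.2% before the alpha and beta genes. The 3 Prkag2 stretches had 48.4% (the stretch shown), 73.2% and 77.2%. Which Prkag2 start was in use was not measured, and a match describes the letters only.

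**Figure D1:**
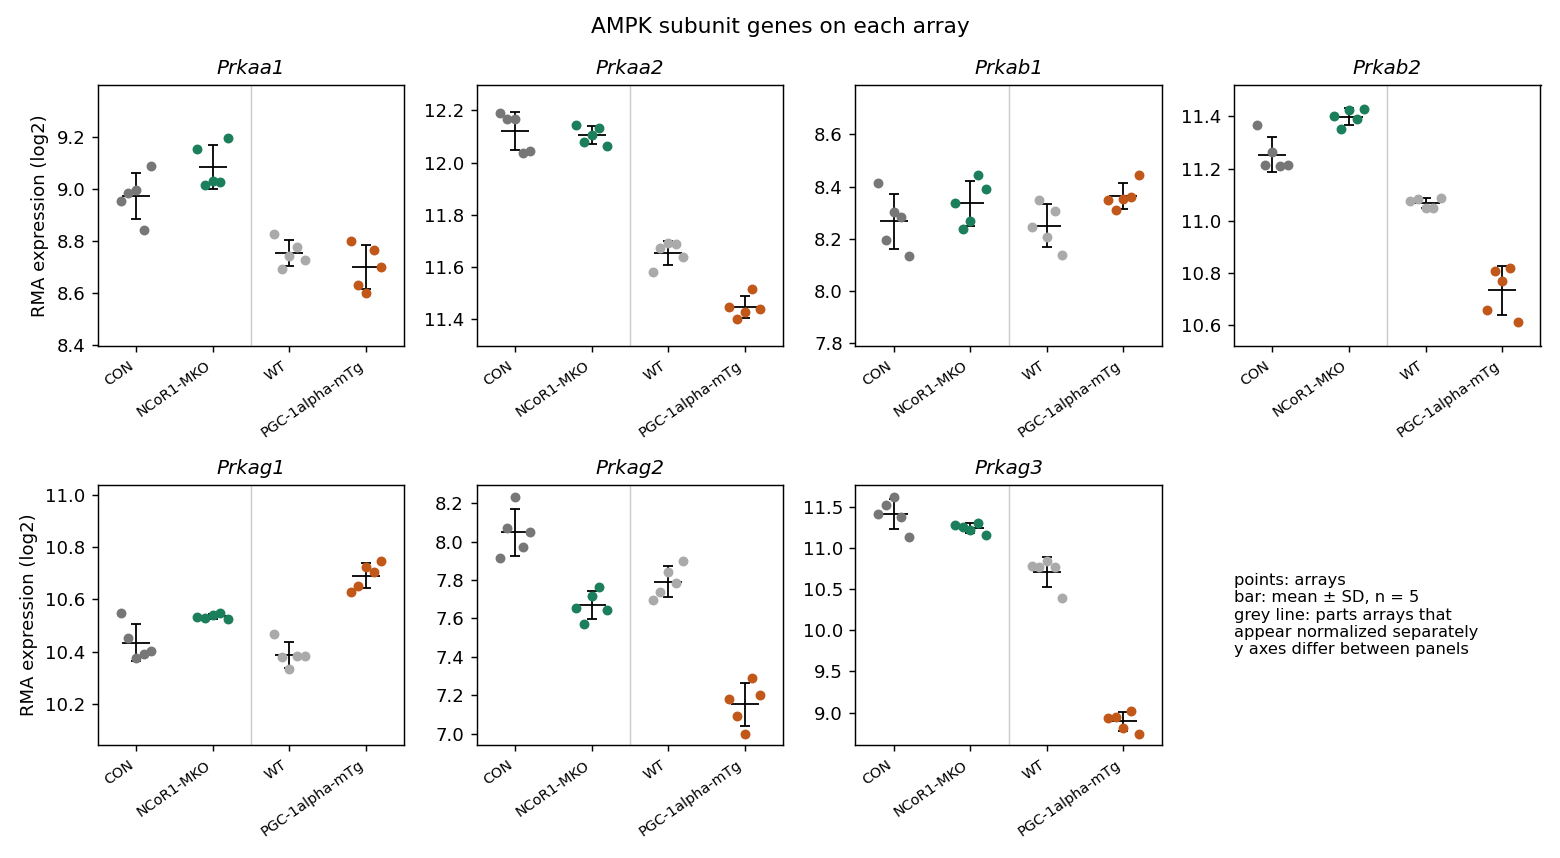
RMA expression (log2, y axis, range differing by panel) of the 7 AMPK subunit genes on each of 20 arrays (points), by group (x axis), with mean ± SD (bars, n = 5). In PGC-1alpha-mTg every Prkag3, Prkag2, Prkab2 and Prkaa2 value lay below every WT value and every Prkag1 value above, while in NCoR1-MKO only Prkag2 was apart from its controls.

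In muscle with extra PGC-1alpha, transcripts of the AMPK subunits changed unequally. Subunit protein, the make-up of the complex and AMPK activity were not measured here. The fast-muscle gamma subunit gene Prkag3 fell to 28.4% of WT, Prkag2 to 64.2%, the beta2 gene Prkab2 to 79.3% and the alpha2 gene Prkaa2 to 86.5%, and the widely expressed gamma1 gene Prkag1 rose to 123%. The alpha1 and beta1 genes, Prkaa1 and Prkab1, did not pass the test. Thus 4 of 7 subunit genes fell and 1 rose, in a comparison in which 28.0% of all genes were called, 16.1% lower and 11.9% higher. The median change of the 7 was -0.21, against 0.02 over all genes.

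The gamma subunits carry the nucleotide-binding sites of the complex, and all 3 of their genes were called. Prkag3 read 10.79, 10.77, 10.84, 10.77 and 10.39 on WT arrays 1 to 5 and 8.93, 8.95, 8.82, 9.02 and 8.74 on the PGC-1alpha-mTg arrays. The groups were separated by 1.37, and WT 5 stood below the other WT arrays. The change was -1.82 ± 0.08 (limma adjusted p = 3.54e-13), a 3.52-fold fall, and only 4 of the 19938 genes had a more negative change. Without WT 5 it was -1.90.

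Prkag2 encodes gamma2, best known from the heart, where mutations of its human counterpart cause a cardiomyopathy with glycogen storage. It read 7.70, 7.74, 7.84, 7.78 and 7.90 in WT and 7.18, 7.09, 6.999, 7.29 and 7.20 in PGC-1alpha-mTg, with no overlap. The fall was -0.64 ± 0.06 (limma adjusted p = 2.94e-08). Prkag1 went the other way, from 10.47, 10.38, 10.33, 10.38 and 10.38 in WT to 10.63, 10.65, 10.72, 10.70 and 10.75, all above WT, a rise of 0.30 ± 0.04 (limma adjusted p = 3.32e-06).

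The beta subunits hold the complex together and bind glycogen. Prkab2, the beta isoform typical of muscle, read 11.08, 11.08, 11.05, 11.05 and 11.09 in WT and 10.66, 10.81, 10.77, 10.82 and 10.61 in PGC-1alpha-mTg. All transgenic arrays were lower, and their spread was wider (SD 0.0936 against 0.0184). The fall was -0.34 ± 0.04 (limma adjusted p = 3.21e-06). Prkab1 ranged from 8.14 to 8.35 in WT and from 8.31 to 8.44 in PGC-1alpha-mTg, a change of 0.11 ± 0.05 that missed the threshold (limma adjusted p = 0.131). It passed, at 0.17, after quantile normalization across the 20 arrays (limma adjusted p = 0.0180).

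The alpha subunits carry the kinase domain. Prkaa2 read 11.58, 11.67, 11.69, 11.69 and 11.64 in WT and 11.45, 11.40, 11.43, 11.51 and 11.44 in PGC-1alpha-mTg. The groups did not overlap, though the gap was only 0.065, and the fall was -0.21 ± 0.04 (limma adjusted p = 0.000384). Prkaa1 ranged from 8.69 to 8.83 in WT and from 8.60 to 8.80 in PGC-1alpha-mTg. Its change of -0.05 ± 0.05 did not pass (limma adjusted p = 0.495), with a 95% interval from -0.16 to 0.05.

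Of the 7 genes, 5 had transgenic values wholly apart from WT, 4 below and 1 above, as had 19.9% of all genes, 11.2% below and 8.72% above. The 5 calls were made in each of the 20 fits that left out 1 array. In a test for a change beyond 1.2-fold, Prkag2 and Prkag3 passed and the other calls were lost. The estimates of Prkab2 and Prkag1, 1.26-fold and 1.23-fold, were above 1.2-fold, but not by enough for that test.

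**Figure D2:**
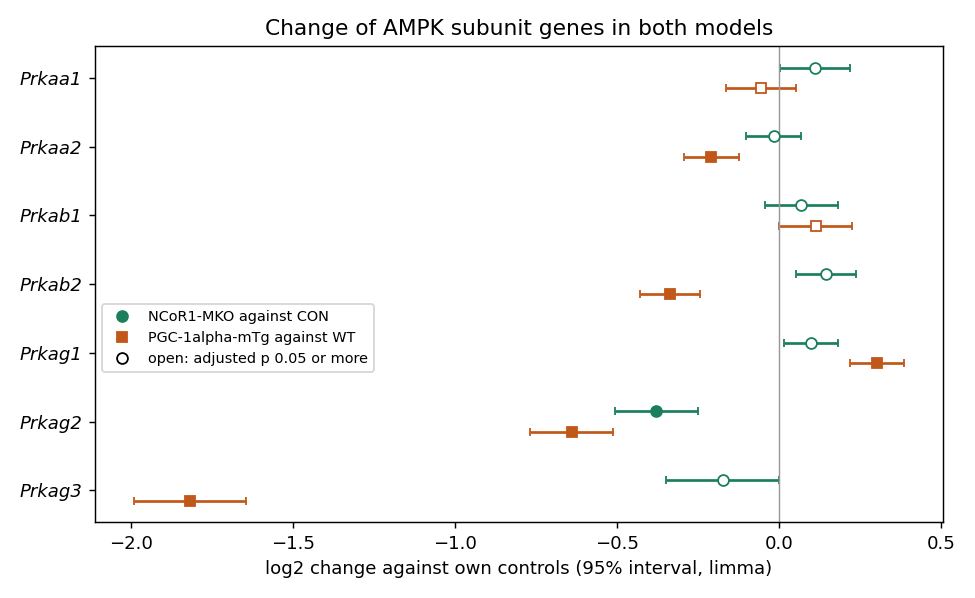
Log2 change (x axis) of each AMPK subunit gene (y axis) against its own controls, with the limma 95% interval, in NCoR1-MKO (circles) and PGC-1alpha-mTg (squares). Filled symbols have an adjusted p under 0.05. Prkag3 at -1.82 in PGC-1alpha-mTg stands far from the rest, and Prkag2 is the gene with a filled symbol in both models.

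In muscle without NCoR1 a single subunit gene passed the test. Prkag2 fell to 76.9% of CON, and the other 6 genes changed by between -0.17 and 0.15 without passing. Called genes made up 2.63% of all genes here, 1.32% lower and 1.31% higher. The median change of the 7 genes was 0.07, against 0.001 over all genes.

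Prkag2 read 7.92, 8.07, 8.24, 7.97 and 8.05 on CON arrays 1 to 5 and 7.66, 7.57, 7.72, 7.76 and 7.64 on the NCoR1-MKO arrays. No knockout array reached a control, which held for 4.17% of all genes in either direction. The change was -0.38 ± 0.06 (limma adjusted p = 0.000695), a 1.30-fold fall, and with any single array removed its adjusted p was at most 0.00322. The estimate was above 1.2-fold, but the call was lost in the test for a change beyond 1.2-fold.

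Prkag3 read 11.42, 11.52, 11.63, 11.38 and 11.14 in CON and 11.28, 11.26, 11.21, 11.31 and 11.15 in NCoR1-MKO. The knockout arrays lay close together (SD 0.0604, against 0.184 in CON) and within the range of the controls. The change of -0.17 ± 0.08 did not pass (limma adjusted p = 0.429), with a 95% interval from -0.35 to 0.001.

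Prkab2 came closest to a call among the others. It read 11.37, 11.21, 11.26, 11.21 and 11.21 in CON and 11.40, 11.35, 11.43, 11.39 and 11.43 in NCoR1-MKO, so 4 of 5 knockout arrays lay above every control. The change of 0.15 ± 0.04 had a limma adjusted p of 0.0901. Without CON 1, the highest control, it was 0.17 (limma adjusted p = 0.0402), and with trended, robust moderation of the variance it passed at 0.15 (limma adjusted p = 0.0272).

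Prkag1 ranged from 10.38 to 10.55 in CON and from 10.53 to 10.55 in NCoR1-MKO, a change of 0.10 ± 0.04 (limma adjusted p = 0.268). Prkaa1 ranged from 8.84 to 9.09 and from 9.02 to 9.19, a change of 0.11 ± 0.05 (limma adjusted p = 0.398). Prkab1 ranged from 8.14 to 8.41 and from 8.24 to 8.44, a change of 0.07 ± 0.05 (limma adjusted p = 0.750). Prkaa2 ranged from 12.04 to 12.19 and from 12.06 to 12.14, a change of -0.02 ± 0.04 whose 95% interval ran from -0.10 to 0.07 (limma adjusted p = 0.963). For these 4 genes the groups overlapped.

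The 2 models have separate controls, and the difference of their effects was tested for each gene in the same fit. Each model belongs to 1 pair of groups. A difference of effects therefore cannot be told apart from a difference in processing or scale between the pairs. It passed for 5 of the 7 genes, 4 lower and 1 higher, against 15.2% of all genes, 8.50% lower and 6.66% higher. For Prkag3 the effect in PGC-1alpha-mTg was more negative than that in NCoR1-MKO, which was not called, by -1.64 ± 0.12 (limma adjusted p = 3.26e-09). For Prkab2 the effects had opposite signs and differed by -0.48 ± 0.06 (limma adjusted p = 7.83e-06). The effect on Prkag1 was higher in the transgenic muscle by 0.20 ± 0.06 (limma adjusted p = 0.0165). These 3 differences were called with any 1 array removed.

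For Prkaa2 the difference was -0.19 ± 0.06 (limma adjusted p = 0.0254), and it was lost without CON 4, CON 5 or WT 3 (adjusted p up to 0.0526). For Prkag2, which fell in both models, it was -0.26 ± 0.09 (limma adjusted p = 0.0460). That call did not survive the removal of any of 14 single arrays, CON 1, 2, 4 and 5, NCoR1-MKO 1, 3, 4 and 5, WT 3, 4 and 5, and PGC-1alpha-mTg 1, 2 and 3, the adjusted p reaching 0.0946. It was also lost with each array centred on its median (limma adjusted p = 0.0603). Without both PGC-1alpha-mTg 2 and 3, the arrays with the highest medians of their group, the limma adjusted p was 0.0858 for Prkaa2 and 0.196 for Prkag2. With replicate numbers as a block the differences of Prkaa2, Prkag1 and Prkag2 were all lost (limma adjusted p = 0.0611, 0.0646 and 0.0651). The differences of Prkaa1, -0.17 ± 0.07, and Prkab1, 0.05 ± 0.08, did not pass (limma adjusted p = 0.150 and 0.768).

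Differences taken within an array show how unequally the isoforms of a subunit changed, independent of the scaling of that array. They are given relative to their mean in the controls and were not tested. Prkag3 less Prkag1 stood at -2.12 ± 0.15 (SD, n = 5) in PGC-1alpha-mTg, with WT arrays between -0.32 and 0.19. This was a 4.35-fold shift of their signal ratio away from Prkag3. In NCoR1-MKO the same difference stood at -0.27 ± 0.06 (SD, n = 5), with CON arrays between -0.25 and 0.27. Of the 5 knockout arrays, 2 lay within that range and 3 below it.

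Prkag2 less Prkag1 stood at -0.94 ± 0.12 (SD, n = 5) in PGC-1alpha-mTg and at -0.48 ± 0.07 in NCoR1-MKO, below every control array in both. Prkab2 less Prkab1 stood at -0.45 ± 0.13 (SD, n = 5) in PGC-1alpha-mTg, where WT arrays reached down to -0.09, and at 0.08 ± 0.08 in NCoR1-MKO. Prkaa2 less Prkaa1 stood at -0.15 ± 0.07 and -0.13 ± 0.10 (SD, n = 5), and its groups overlapped in both models.

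**Figure D3:**
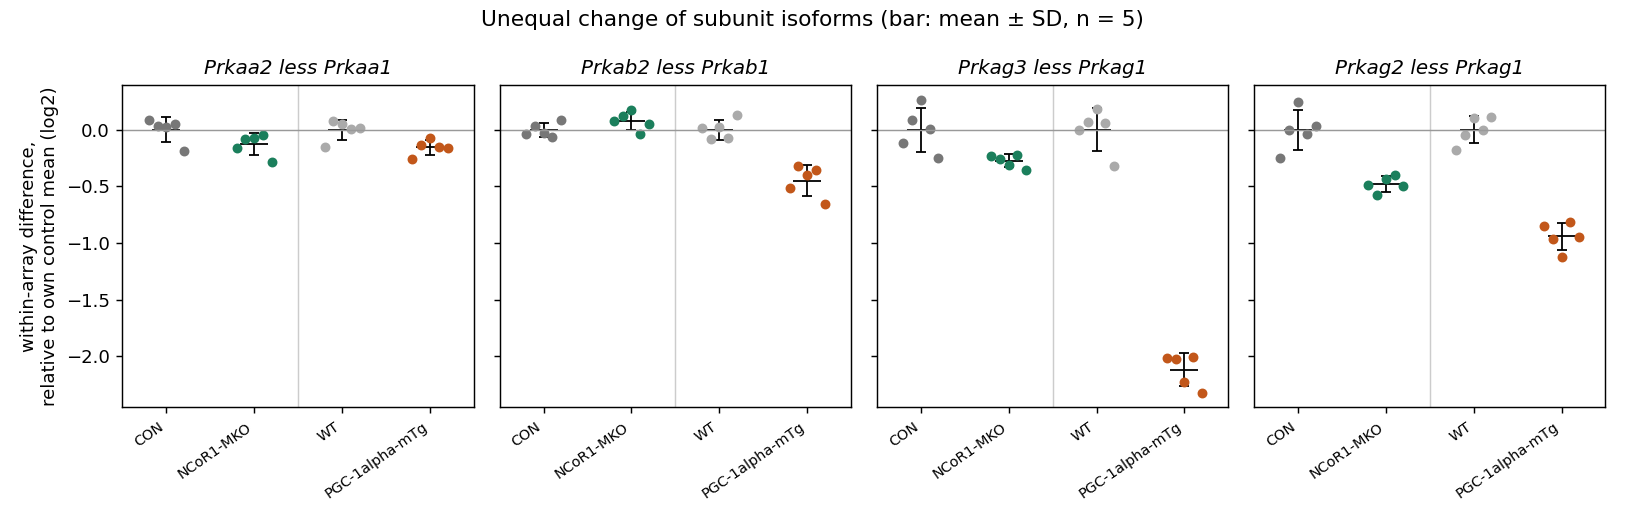
Within-array log2 difference of 2 isoform genes of a subunit, relative to the mean of that difference in the group's own controls (y axis), on each array (points) by group (x axis), with mean ± SD (bars, n = 5). Prkag3 less Prkag1 lies near -2.12 in PGC-1alpha-mTg, Prkag2 less Prkag1 is below its controls in both models, and Prkaa2 less Prkaa1 overlaps its controls in both.

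Of 15 measured upstream kinases and regulators of AMPK, 8 fell in PGC-1alpha-mTg and none rose, with a median of -0.11, in a comparison in which 16.1% of all genes fell. Another 5 of the 15 had positive changes that were not called, up to 0.25. The falls took in all 5 measured genes of the LKB1 complex: Stk11, which encodes LKB1 itself (-0.20 ± 0.05), its pseudokinase partner genes Strada (-0.46 ± 0.06) and Stradb (-0.11 ± 0.04), and the scaffold genes Cab39 (-0.22 ± 0.04) and Cab39l (-0.48 ± 0.04). Sesn3, a sestrin gene, fell most (-0.57 ± 0.05, limma adjusted p = 9.44e-09), and Flcn, which encodes the AMPK-binding protein folliculin, fell by 0.37 ± 0.08 on the log2 scale. The phosphatase gene Ppm1a also fell (-0.14 ± 0.04). Only 3 of the 8 calls were left in the test for a change beyond 1.2-fold, those of Strada, Cab39l and Sesn3. Camkk2, the calcium-dependent AMPK kinase, stood at 0.01. In NCoR1-MKO limma called 0 of the 15 after adjustment, where 2.63% of all genes were called. At an unadjusted p under 0.05 it was 3 of the 15, against 2356 of all 19938 genes. The changes of the 15 ranged from -0.12 to 0.15.

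Substrates and effectors of AMPK were mixed in PGC-1alpha-mTg, with 8 of 28 higher and 6 lower and a median of -0.04, where 11.9% of all genes were higher and 16.1% lower. Ppargc1a, the transgene's own gene, is counted among the 8 and rose by 1.83 ± 0.07, a rise set by the design. The heart-type phosphofructokinase-2 gene Pfkfb2 rose by 0.86 ± 0.07, and Mlycd, which breaks down the malonyl-CoA made by acetyl-CoA carboxylase, by 0.51 ± 0.07. Acacb, the muscle acetyl-CoA carboxylase, rose by 0.16 ± 0.05 (limma adjusted p = 0.0204). The lipogenic factor gene Srebf1 fell by 1.30 ± 0.11 on the log2 scale, the muscle nitric oxide synthase gene Nos1 by 0.80 ± 0.08, the elongation factor 2 kinase gene Eef2k by 0.55 ± 0.07 and the autophagy kinase gene Ulk2 by 0.46 ± 0.04. Slc2a4, the insulin-regulated glucose transporter, stood at -0.10 and Tbc1d1, a Rab regulator of its traffic, at 0.36, neither called (limma adjusted p = 0.0835 and 0.0822). The test for a change beyond 1.2-fold left 7 effector calls, 3 higher and 4 lower.

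In NCoR1-MKO 1 of 28 effectors was called (2 without CON 4 or without PGC-1alpha-mTg 5), where 2.63% of all genes were called. This was Srebf1, which rose (0.43 ± 0.11, limma adjusted p = 0.0287). Removing any of 6 arrays (CON 1, 2 and 5, NCoR1-MKO 1, 2 and 4) took the call away, at an adjusted p of up to 0.0912. The difference of its effects between the models was -1.73 (limma adjusted p = 3.77e-08).

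The AMPK-related kinases, most of which LKB1 also activates, changed by between -0.42 and 0.29 in PGC-1alpha-mTg. In PGC-1alpha-mTg Snrk (0.29 ± 0.08) and Mark4 (0.24 ± 0.05) rose, and Nuak1 (-0.42 ± 0.11) and Mark3 (-0.15 ± 0.05) fell, 4 of 14 in all at a median of -0.05. That share is near the 28.0% called over all genes. Without PGC-1alpha-mTg 2 and 3, Snrk and Mark4 alone were called. The test for a change beyond 1.2-fold left 0 of the 4 calls. In NCoR1-MKO limma called 0 of the 14, where 2.63% of all genes were called. At an unadjusted p under 0.05 it was also 0 of the 14, against 2356 of all 19938 genes.

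Genes of enzymes and transporters that bear on the AMP and ATP balance changed in both directions. In PGC-1alpha-mTg 7 of 17 rose and 3 fell, with a median of 0.01, where 11.9% of all genes rose and 16.1% fell. The mitochondrial adenylate kinase genes Ak4 (1.08 ± 0.17) and Ak3 (0.66 ± 0.05) and the mitochondrial creatine kinase gene Ckmt2 (0.92 ± 0.05) rose most. The cytosolic counterparts Ak1 and Ckm, abundant in fast fibres, stood at 0.01 and -0.08 and were not called. Ampd1, the muscle AMP deaminase that removes AMP, fell by 0.38 ± 0.04 on the log2 scale, and the creatine transporter gene Slc6a8 by 0.23 ± 0.05. In the test for a change beyond 1.2-fold, 4 calls were left, those of Ak3, Ak4, Ckmt2 and Adk. In NCoR1-MKO Ckmt2 rose (0.30 ± 0.05, limma adjusted p = 0.00121), the 1 call of 17, where 2.63% of all genes were called.

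**Figure D4:**
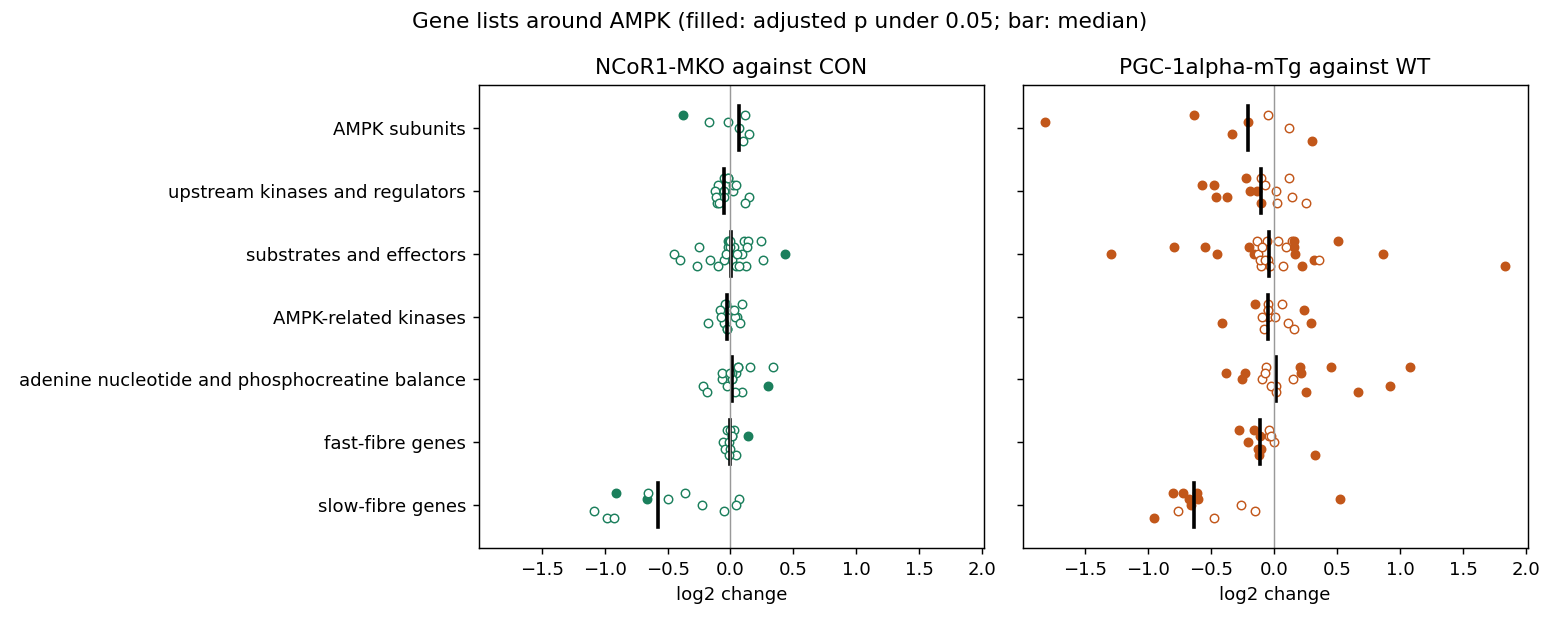
Log2 change (x axis) of each measured gene (points) of the AMPK subunits and 6 related lists (y axis), in NCoR1-MKO against CON (left) and PGC-1alpha-mTg against WT (right). Filled points have an adjusted p under 0.05 and bars are medians, which in PGC-1alpha-mTg were -0.21 for the subunits, -0.11 for the upstream regulators and -0.64 for slow-fibre genes.

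Since gamma3 is typical of fast fibres, fibre genes were set beside it. In PGC-1alpha-mTg 7 of 12 fast-fibre genes fell and 1 rose, where 16.1% of all genes fell and 11.9% rose. The changes were small, with a median of -0.11. The most negative was that of Actn3, the alpha-actinin of fast fibres (-0.28 ± 0.04). The fast IIx myosin gene Myh1 rose (0.32 ± 0.05), and the IIb myosin gene Myh4 stood at -0.04. The slow-fibre list of 12 genes also held Myh2, the gene of the fast IIa myosin. Of these 12, 7 fell and 1 rose, with a median of -0.64. Myh7 (-0.96 ± 0.30) and Myl2 (-0.81 ± 0.18) were among those that fell. In the test for a change beyond 1.2-fold, 0 fast-fibre calls and 1 slow-fibre call were left. Myh7 missed the threshold without WT 1 or PGC-1alpha-mTg 4 (limma adjusted p up to 0.0645). The change of Prkag3, -1.82, was larger in size than that of any of these 24 genes. In WT, however, Actn3 averaged 13.13 and Prkag3 10.71, where the highest single value was 14.47. Sizes of change may therefore not be comparable between Prkag3 and the fast-fibre genes. A link of the subunit changes to fibre type was not tested.

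In NCoR1-MKO the slow-fibre genes Myl2 (-0.91 ± 0.18) and Myl3 (-0.66 ± 0.16) fell. The call of Myl3 depended on CON 1, CON 2 and NCoR1-MKO 5, with a limma adjusted p of up to 0.0766 when any of them was removed. Their list's median was -0.57, with 8 of 12 at an unadjusted p under 0.05, against 2356 of all 19938 genes. Of the 12, 2 were called, where 2.63% of all genes were called. The count was 5 without CON 5, 4 without NCoR1-MKO 3, 1 without CON 1, CON 2 or NCoR1-MKO 5, and 6 with replicate numbers as a block. The fast light chain gene Mylpf was the 1 call among the fast-fibre genes (0.14 ± 0.03). Its call went with the removal of any of 7 arrays (CON 1, 2 and 5, NCoR1-MKO 1, 3, 4 and 5), to a limma adjusted p of up to 0.0921.

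Markers of vessel lining cells moved with the models too. Of 8 endothelial markers 6 rose in PGC-1alpha-mTg, with a median of 0.40, where 11.9% of all genes rose. The list mean per array ranged from 8.41 to 8.65 in WT and from 8.79 to 8.96 in PGC-1alpha-mTg, with no overlap. In NCoR1-MKO all 8 changes were positive, with a median of 0.21, and 1 was called, or 6 at an unadjusted p under 0.05. Over all genes 1.31% were called higher in that comparison, and 2356 of 19938 had an unadjusted p under 0.05. The list mean there ranged from 8.64 to 8.87 in CON and from 8.86 to 9.27 in the knockout. Fibroblast markers had a median of -0.24 in PGC-1alpha-mTg, with 2 of 7 lower, where 16.1% of all genes fell. Their list means ran from 8.84 to 9.21 in WT and from 8.69 to 8.93 in the transgenic mice. The part of either cell type in the changes of the subunit genes was not tested. At most 1 gene was called in each list of adipocyte, smooth muscle, macrophage, nerve or blood markers in either model. These lists held only 4 to 6 measured genes, too few for such counts to tell much. Over all genes 28.0% were called in PGC-1alpha-mTg and 2.63% in NCoR1-MKO. All 5 smooth muscle markers had positive changes in PGC-1alpha-mTg, with a median of 0.15. The skeletal muscle markers averaged 12.87 in WT and 12.85 in PGC-1alpha-mTg. Of these 8 genes 7 had negative changes there, with a median of -0.06, and 1 was called higher and 1 lower.

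Over the 20 arrays, each value taken relative to the mean of its own controls, the genes with the pattern most like Prkag3 were Klhl31 (r = 0.990), Usp10 (0.988), Atp1b2 (0.985), Ccnk (0.982) and Phkb (0.982). Klhl31 is a kelch family gene of muscle, Usp10 encodes a deubiquitinase and Ccnk cyclin K. Atp1b2, a sodium pump subunit, fell by 1.07 ± 0.05 on the log2 scale in PGC-1alpha-mTg, and Phkb, the regulatory beta subunit of glycogen phosphorylase kinase, by 0.91 ± 0.05. The other 3 fell by 0.45 to 0.55 there, and none of the 5 was called in NCoR1-MKO, where they stood between -0.11 and -0.02.

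Closest to Prkaa2 were Srp68 of the signal recognition particle (r = 0.955), Ppat, which opens purine synthesis (0.950), the actin capping gene Capzb (0.949), the arginyltransferase gene Ate1 (0.942) and the receptor gene Ryk (0.940). Ppat fell by 0.75 ± 0.08 on the log2 scale in PGC-1alpha-mTg. The arrays of a group share its effect, and these correlations are a description without a test.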

How the data were processed

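The authors deposited log2 values of expression, made with RMA (background correction, quantile normalization, probe summary) and Partek, per the submitters' processing notes. Versions, genome build and annotation are not given in the sources used here, and log2 was inferred from RMA and from the range, 2.66 to 14.47. RNA (250 ng per array) was amplified and labelled, per the labels' protocols. Mean quantile differences were at most 0.0630 within CON with NCoR1-MKO or WT with PGC-1alpha-mTg, and 0.169 to 0.228 between them. No array was a duplicate.

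Of 35556 probe sets, 21789 had 1 symbol in the platform table, 1621 several and 12146 none here; 21698 of the first matched RefSeq by Entrez number. The brightest probe set stood for each of 19938 genes. Ncor1 was not analysed here. A model of 4 group means over all 20 arrays was fitted with limma 3.58.1 (R 4.3.3, eBayes), two-sided, with calls at an adjusted p under 0.05.

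The subunits and lists were chosen with earlier results of these data known. The text names the 7 genes, up to 3 called genes with the largest change per list and comparison, further list members by their role, and the 5 genes most like Prkag3 and Prkaa2. Some listed genes are not reported here, and counts are over the measured members of each list. Deviations of same-numbered arrays correlated at -0.13 to 0.04 in the knockout comparison (0 of 5 pairs above 0.1) and at -0.23 to 0.20 in the transgenic one (3 of 5 above 0.1). Since not every pair exceeded 0.1, numbers were not used as pairs.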

Additional observations from a re-analysis of the deposited data

Results flagged for a closer look

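Among the 37 genes named by the rule, 148 groups of 5 arrays were searched for a single array far from the other 4, and chance alone would mark about 5 in 100 groups. There were 6 such arrays. In the subunit genes it was Prkag3 on WT 5, at 10.39 with the next lowest WT array at 10.77. The others were Ak4 on NCoR1-MKO 5 (7.99), Capzb on CON 5 (11.86) and PGC-1alpha-mTg 4 (11.31), Ryk on NCoR1-MKO 2 (10.06) and Ccnk on NCoR1-MKO 5 (11.83).

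The effect in PGC-1alpha-mTg differed from that in NCoR1-MKO, by the test of the difference, for 29 of the 37 genes, and for 15.2% of all genes. Most of the 37 were named for a large change in 1 comparison or for following Prkag3 or Prkaa2 over the same arrays, so this count is a description and supports nothing. On the log2 scale the subunit genes differed by -1.64 for Prkag3, -0.48 for Prkab2, -0.26 for Prkag2, -0.19 for Prkaa2 and 0.20 for Prkag1. Upstream of AMPK the differences were -0.61 for Sesn3, -0.38 for Cab39l and -0.35 for Strada. Among effectors and related kinases they were -1.73 for Srebf1, 1.93 for Ppargc1a, 0.81 for Pfkfb2 and 0.32 for Mark4. For the energy-balance genes they were 0.62 for Ckmt2, 0.74 for Ak4 and 0.57 for Ak3, and for the fast-fibre genes -0.25 for Mylpf, 0.27 for Myh1, -0.25 for Actn3 and -0.15 for Casq1. The genes most like Prkaa2 differed by -0.23 (Srp68), -0.73 (Ppat), -0.23 (Capzb), -0.37 (Ate1) and -0.37 (Ryk). Those most like Prkag3 differed by -0.42 (Klhl31), -0.43 (Usp10), -1.03 (Atp1b2), -0.44 (Ccnk) and -0.84 (Phkb).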

How the results depend on the processing

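The alternatives were other scalings, gene filters, probe set rules, array subsets, moderation, array weights, a replicate block, a fold minimum of 1.2 and each array left out, plus, chosen after the data were seen, PGC-1alpha-mTg without arrays 2 and 3. The fold minimum tested whether a change exceeded 1.2-fold, so an estimate above 1.2-fold could fail it. No called change of a subunit gene reversed in the alternatives. Of the 5 subunit calls in PGC-1alpha-mTg, 2 were left with the fold minimum, and 5 in every fit without 1 array. The 1 call in NCoR1-MKO became 0 with the fold minimum, 2 with trended, robust moderation and 1 to 2 with 1 array left out. The 5 calls for the difference became 2 with the replicate block, 2 with the fold minimum, 3 without PGC-1alpha-mTg 2 and 3, and 3 to 5 with 1 array left out. The block lost the differences of Prkaa2, Prkag1 and Prkag2 (limma adjusted p = 0.0611, 0.0646 and 0.0651) and no subunit call in either model. Over all genes the fold minimum left 44 of 525 calls in NCoR1-MKO, 1022 of 5575 in PGC-1alpha-mTg and 457 of 3022 for the difference. Among calls in NCoR1-MKO 49.7% were higher, and 41.0% with each array centred on its median. The deposited values hold no detection calls, so how far each subunit gene's signal lies above background is unknown.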
